A study of Mus musculus with 2 samples.

Results

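Gene deserts of the mouse autosomes were examined for DNA methylation in the liver of Uhrf1 YP187/188AA knock-in mice. A desert was taken as a 1 Mb window of the mm9 genome that holds the 5′ end of no protein-coding gene (GENCODE annotation of mm9), with at least 50 CpGs read 5 times or more in each library. Of the 323 autosomal windows without such a 5′ end, 65 have no sequence in the assembly, and the other 258 all passed the minimum. They are 258 of the 2415 autosomal windows that passed it, and they hold 98957 of the 2654195 CpGs shared by both libraries. The cytosines of the top and bottom strand of a CpG were counted separately.

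The WT group was wild type, the KI group was homozygous for the replacement of a tyrosine and a proline of UHRF1 by alanine, and both were 3-month-old C57BL/6 males per the labels. The genotype field of the KI label says knock out, whereas its title says KI. Liver DNA of 3 mice was pooled per genotype before reduced representation bisulfite sequencing (RRBS), so there was 1 library per genotype and no spread between mice. RRBS cuts DNA with MspI at CCGG sites and reads short fragments, in which cytosines that resist bisulfite count as methylated. Intervals given here are at 95%, cover counting error only, and treat reads as independent, although PCR copies and reads spanning several CpGs are not. They compare the libraries and not the genotypes.

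UHRF1 binds hemi-methylated DNA behind the replication fork and helps bring DNMT1, the maintenance methyltransferase, to the new strand. Its tandem Tudor domain, which carries the replaced residues, binds histone H3 methylated at lysine 9. Gene deserts are AT-rich, poor in CpG islands, often replicated late and rich in H3K9-methylated chromatin, and in most normal tissues their CpGs are largely methylated.

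The sequences of 6 desert CpGs show the contexts in which the change differed most. They are the most deeply read CpGs of their kind, 1 per window and outside CCGG sites. The kinds were chosen after the values were seen. The sequence of each CpG is found at fewer than 5 places in the mm9 assembly. Each is given on the plus strand of mm9 with 35 bases before the CpG, and capitals mark every CpG shared by both libraries. The first 3 hold a lone CpG with A or T on each side, and the last 3 hold a central CpG between G or C with at least 5 other CpGs within 35 bases.
Lone CpG, chr6:93680332-93680403: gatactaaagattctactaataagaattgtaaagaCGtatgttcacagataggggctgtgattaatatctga
Lone CpG, chr19:35777161-35777232: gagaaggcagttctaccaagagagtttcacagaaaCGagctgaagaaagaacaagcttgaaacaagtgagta
Lone CpG, chr10:71302575-71302646: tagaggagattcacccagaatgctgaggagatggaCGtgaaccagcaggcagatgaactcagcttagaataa
CpG-rich stretch, chr17:39985493-39985564: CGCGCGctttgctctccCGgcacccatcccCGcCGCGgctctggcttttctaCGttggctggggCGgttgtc
CpG-rich stretch, chr13:57813188-57813259: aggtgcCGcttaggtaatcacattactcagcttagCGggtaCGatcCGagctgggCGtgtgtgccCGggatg
CpG-rich stretch, chr14:92391685-92391756: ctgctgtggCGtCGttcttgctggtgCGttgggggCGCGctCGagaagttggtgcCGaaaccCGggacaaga
The lone CpG on chromosome 10, between Ipmk and Zwint, was methylated in 69.4% of 651 reads in WT and in 34.8% of 391 reads in KI (Fisher's exact test, adjusted p = 1.1e-23). The one on chromosome 19, between Kif20b and Htr7, read 59.3% in WT and 35.8% in KI, a difference of -23.5 points that passed the test but not the minimum of 25 points. The lone CpG on chromosome 6 read 91.8% in WT and 91% in KI. It lies in 1 of the 5 desert windows with the smallest loss, described further on. In the CpG-rich stretches the central CpG moved from 22.7% to 21.9% on chromosome 17, from 92.4% to 87.1% on chromosome 13 and from 95.9% to 97.1% on chromosome 14, and none of these passed the test. The stretch on chromosome 17 stands apart, with 33830 reads in WT against a median of 53 over desert CpGs. Places were counted in the assembly only, so its low count does not show that the sequence is rare in the genome. Whether its reads come from further copies was not tested.

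Desert CpGs averaged 66.3% methylation in WT and went down to 59.4% in KI, which is -6.94 points (-6.99 to -6.88) or 10.5% of the WT level. The other 2157 autosomal windows went from 44.3% to 41.6%, which is -2.73 points. The loss in deserts was larger by 4.21 points (difference -4.21, -4.27 to -4.15), and the difference was -2.66 points when every read had the same weight. Inside CCGG sites, where the cut ends are filled in with new bases during library preparation and read low on one strand, desert CpGs averaged 46.6% in WT and 42.4% in KI. The 55772 desert CpGs outside CCGG sites went from 81.6% in WT to 72.6% in KI (-9.06 points), against 47.6% to 44.5% in the other windows. The difference there was -6.03 points (-6.11 to -5.94). Windows that adjoin a desert lay in between, with a change of -4.66 points outside CCGG sites. Desert CpGs were read somewhat more deeply than the rest, with 86.7 reads per CpG in WT and 76.7 in KI in the median window against 68.1 and 62 elsewhere.

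The loss showed as fewer CpGs at the highest levels and more at intermediate levels, and not as the emptying of a few sites. Outside CCGG sites, 34.6% of desert CpGs were methylated at 90% to under 100% in WT and 19% in KI, and fully methylated CpGs went from 9.88% to 5.95%. CpGs at 50% to under 60% went from 3.11% to 6.74%. CpGs below 10% made up 2.78% in WT and 3.46% in KI, whereas in the other windows 40.2% of CpGs lay below 10% in WT. The plot of levels shows the tallest desert bar move from the bin of 90% to under 100% to the bin of 80% to under 90%.

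**Figure D1:**
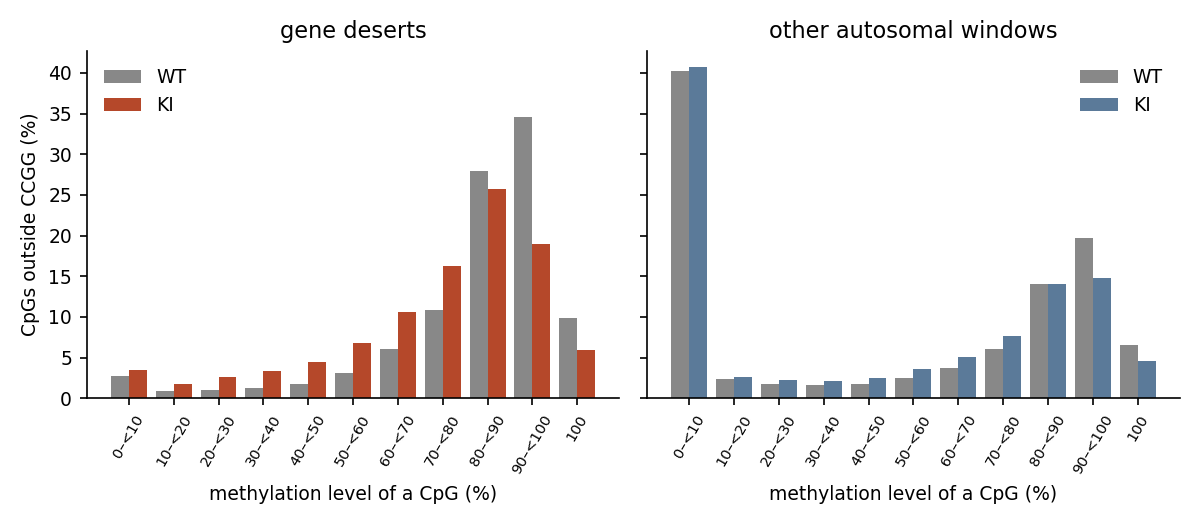
Share of CpGs outside CCGG sites (y axis, percent) by methylation level in bins of 10 points (x axis, percent) in WT (grey) and KI (colored), for gene deserts on the left and other autosomal windows on the right. In deserts the bin of 90% to under 100% falls from 34.6% to 19% of CpGs while the bins from 30% to under 80% grow, and few CpGs lie below 10% in either library.

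A WT level above 70% was seen at 48051 desert CpGs covered by 20 or more reads in each library. Of these, 1554 (3.23%) were below 50% in KI and 29 (0.0604%) were below 20%. In the other windows these shares were 1.42% and 0.0209%. In the opposite direction, 2 desert CpGs and 14 CpGs of the other windows at that depth went from below 20% to above 70%. No share is given, since CpGs below 20% in WT were not counted at that depth.

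A CpG was called when Fisher's exact test gave an adjusted p under 0.05 and its levels differed by over 25 points. In deserts 3637 CpGs (3.68%) were called lower in KI. Over all shared CpGs of the genome 1.09% were called lower, and in the other autosomal windows 22806 CpGs (0.93%) were. A CpG at or below 25% in WT cannot be called lower. Among CpGs above 70% in WT with at least 20 reads in each library, 5.13% were called lower in deserts and 1.99% in the other windows. Higher in KI were 37 desert CpGs (0.0374%), against 0.0474% over all shared CpGs. The CpGs called lower lay in 256 of the 258 deserts (99.2%), with a median of 12 per window and at most 47. Of the other windows 98.5% held such a CpG, with a median of 8 and at most 74. Their median level was 79.2% in WT and 42.8% in KI, at a median of 101 and 87 reads. Their depth was above that of desert CpGs in general, at medians of 53 and 50 reads. Of the CpGs called lower, 3034 lay outside CCGG sites, and for 2766 of these the cytosine on the opposite strand was also measured. It was lower in KI at 97% of them, with a median change of -26.8 points. Of all desert CpGs outside CCGG sites 75.3% were lower in KI and 20.2% higher. Opposite cytosines that were themselves called are included. For the CpGs called higher, the opposite cytosine moved the same way at 63.6% of 22 sites.

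Every desert window had a lower mean in KI. Mean levels of the 258 windows ran from 19.5% to 75.4% in WT with a median of 67%, and from 17.7% to 70.4% in KI with a median of 60%. The 2157 other windows were also all lower in KI. The median change was -7.22 points in deserts and -3.06 points elsewhere, and 252 deserts (97.7%) lost more than the median of the other windows. Outside CCGG sites the medians were -9.61 and -3.49 points, and deserts ranged from -15.5 to -1.33 points. The groups overlapped, since the other windows ranged from -17.7 to -0.122 points. With each CpG as a stratum (Cochran-Mantel-Haenszel test), 257 of the 258 deserts passed an adjusted p of 0.05, where 100% of all autosomal windows passed when rounded, so this count sets deserts apart in no way. The window that did not pass, chr8:20000001-21000000, had the lowest level of all deserts, 19.5% in WT and 17.7% in KI over 109 CpGs, and holds the noncoding transcript 2610005L07Rik.

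**Figure D2:**
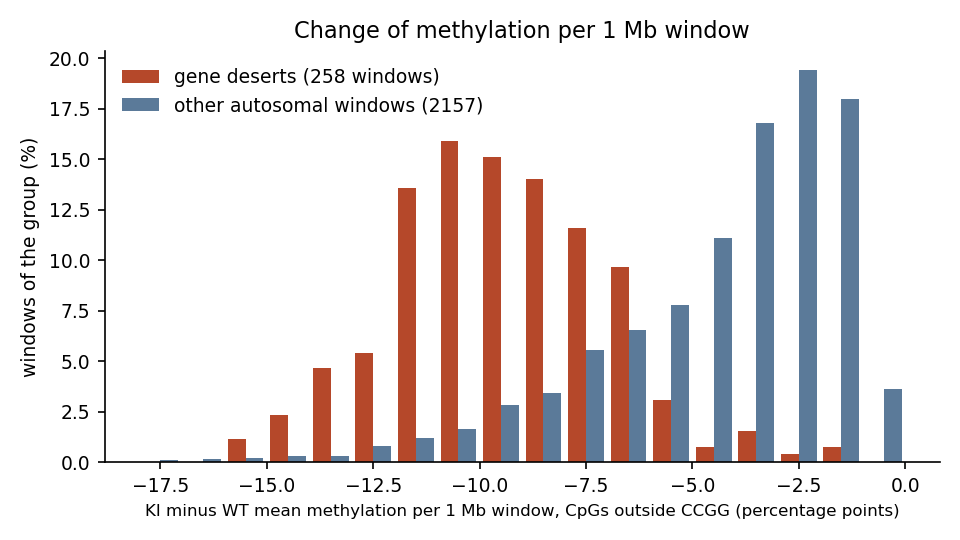
Distribution of 1 Mb windows (y axis, percent of the group) by the KI minus WT difference of mean methylation over CpGs outside CCGG sites (x axis, percentage points, bins of 1 point) for 258 gene deserts and 2157 other autosomal windows. Deserts center on a median of -9.61 points and the other windows on -3.49 points, with overlap between them.

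Deserts lost more than the other windows on 19 of 19 autosomes. Outside CCGG sites the desert change was smallest on chromosome 8 (-7.66 points) and largest on chromosome 9 (-11 points; SD over chromosomes 0.841), and that of the other windows from -3.49 to -2.2 points, without overlap. Desert CpGs of chromosome 17 had the lowest WT level, 63.1%. Of its 2382 desert CpGs outside CCGG sites, 1041 come from 1 window, chr17:39000001-40000000, and these averaged 40.2% in WT and 34.1% in KI. Over all 1342 CpGs of that window there were 1633 reads per CpG in WT, and levels of 39.8% in WT and 33.8% in KI. Uhrf1 itself is on chromosome 17, and per the paper the allele was made in 129/SV-derived embryonic stem cells. Without chromosome 17 the desert change was -6.93 points.

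The loss went down in steps as the number of genes in a window went up. Outside CCGG sites and outside CpG islands, the change was -10.1 points in deserts, -7.11 points in the 776 windows with 1 to 4 protein-coding 5′ ends, -4.88 points in the 925 windows with 5 to 14, and -3.70 points in the 456 windows with 15 or more. The counting intervals did not overlap, and WT levels over these classes were 83.1%, 78.5%, 76.1% and 73%. Deserts also had the lowest GC content, with a median of 37.5% against 39.7%, 42.8% and 45.7%, and the fewest CpGs, with 5.01 per kb against 6.5, 9.36 and 11.4. Over all CpGs the 271 windows with exactly 1 such 5′ end changed by -5.30 points (58.1% to 52.8%), against -6.94 points in deserts. Within deserts the change varied little with the distance to the nearest gene start. Outside islands the change was -9.33 points (-10.2 to -8.44) within 100 kb of a 5′ end, -9.65 points at 100 to 500 kb, -10.1 points at 500 kb to 1 Mb and -10.5 points beyond 1 Mb. In the other windows it was -4.25, -7.16 and -9.67 points over the first 3 of these distances. At 500 kb to 1 Mb the interval of the other windows (-9.86 to -9.48) thus came near that of deserts (-10.3 to -9.96), and the gap between desert and other CpGs was widest near genes.

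**Figure D3:**
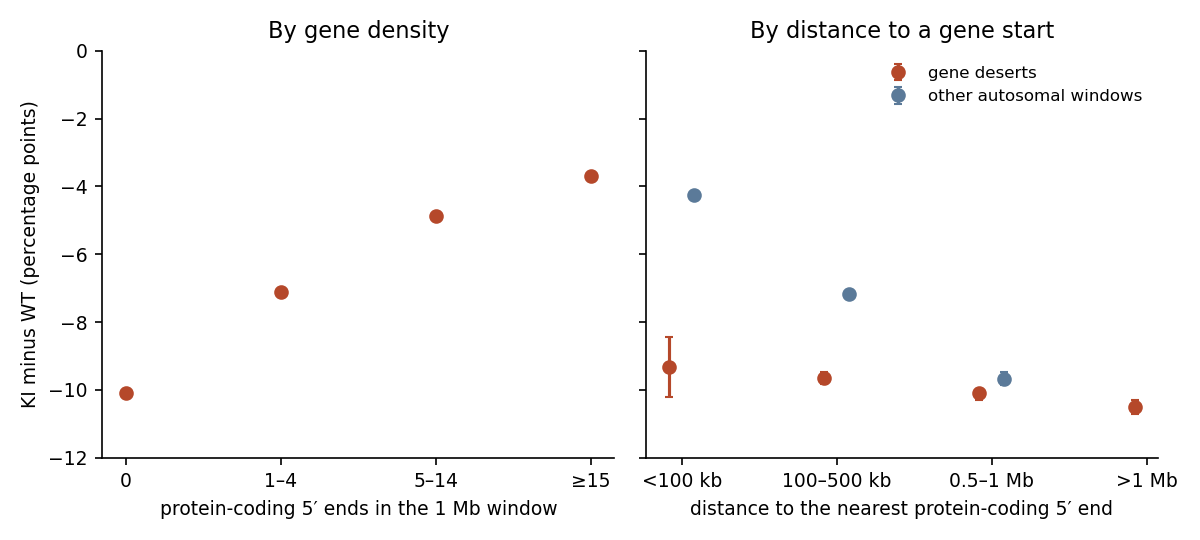
KI minus WT methylation (y axis, percentage points, mean with 95% counting interval) of CpGs outside CCGG sites and islands, by the number of protein-coding 5′ ends in the 1 Mb window (left) and by distance to the nearest such 5′ end (right; deserts red, other windows blue). The change lessens from -10.1 points with no 5′ end to -3.70 points with 15 or more, and the other windows approach deserts as the distance grows.

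Because highly methylated CpGs have more to lose, deserts were also compared with the other windows at like WT levels. The WT reads of each CpG were split at random into 2 parts, of which the first set the bin and the second measured the change. Averaged over bins with the desert CpGs as weights, the change was -6.97 points in deserts and -3.86 points elsewhere, a difference of -3.11 points (-3.18 to -3.05). Outside CCGG sites it was -9.01 against -5.10 points, a difference of -3.91 points (-4.01 to -3.81). The largest losses were at intermediate levels: CpGs placed at 50% to under 60% by the first part of the WT reads changed by -15.2 points in deserts and -7.35 points elsewhere, and those at 60% to under 70% by -15.2 and -7.78 points. In the lower and middle bins the match was loose, since the second part of the reads gave a mean of 63.9% in deserts and 58.9% elsewhere for the bin of 50% to under 60%, and 46.1% and 38.6% for that of 30% to under 40%. From 70% up the means were closer, with 86.2% and 86.1% in the bin of 80% to under 90%, where the changes were -10.1 and -5.79 points. At 90% to under 100% the changes were -6.21 and -3.55 points. Desert CpGs below 10% in WT changed by -0.147 points, with an interval that holds 0 (-0.641 to 0.347).

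**Figure D4:**
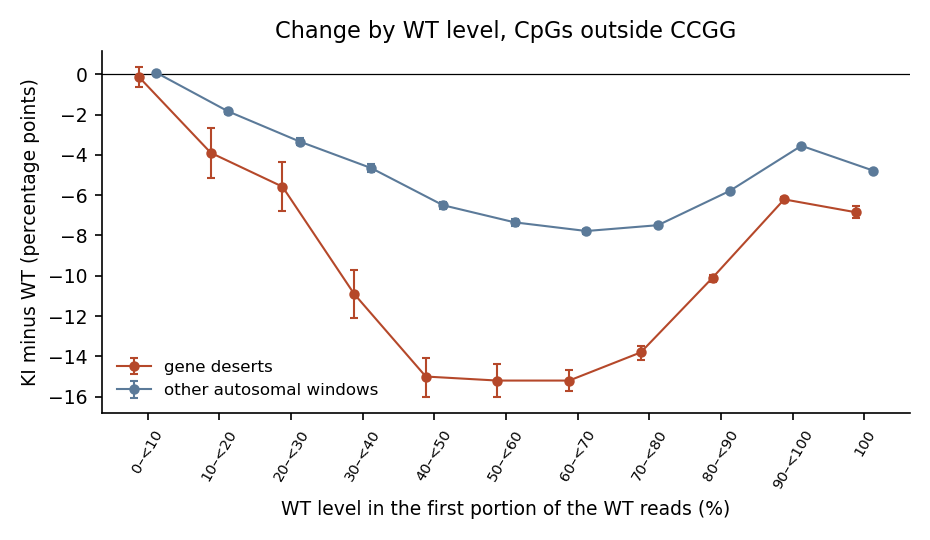
KI minus WT methylation (y axis, percentage points, mean with 95% counting interval) of CpGs outside CCGG sites by the WT level in the first portion of the WT reads (x axis, percent), for gene deserts (red) and other autosomal windows (blue). Desert CpGs lie below the others in every bin from 10% up, with the deepest point of -15.2 points at 50% to under 70%, and both lie near 0 in the lowest bin.

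The sequence next to a desert CpG went with the size of its loss. The 6697 desert CpGs outside CCGG sites with no other CpG within 35 bases went from 73.5% to 57.1%, or by -16.5 points (-16.7 to -16.2), which is 22.4% of their WT level. With 1, 2, and 3 to 4 neighbors the change was -12.4, -9.09 and -6.11 points, and with 5 or more it was -4.80 points (75.1% to 70.3%), or 6.39% of the WT level. In the other windows lone CpGs changed by -6.92 points from a like WT level of 71%, and those with 5 or more neighbors, which averaged 13.9% in WT, by -0.631 points. The bases beside the CpG showed the same kind of order. Desert CpGs with G or C on both sides changed by -5.95 points, those with G or C on 1 side by -10.3 points, and those with A or T on both sides by -13.8 points. The 1473 desert CpGs that were alone and had A or T on both sides went from 68.8% in WT to 49.7% in KI, a change of -19.0 points, against -8.79 points for the same context elsewhere (difference -10.2, -10.9 to -9.59). At the other end, desert CpGs with at least 5 neighbors and G or C on both sides changed by -3.92 points. Among desert CpGs called lower outside CCGG sites, 37.4% had no neighbor and 25.5% had A or T on both sides, against 12% and 12.8% of all desert CpGs outside CCGG sites.

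**Figure D5:**
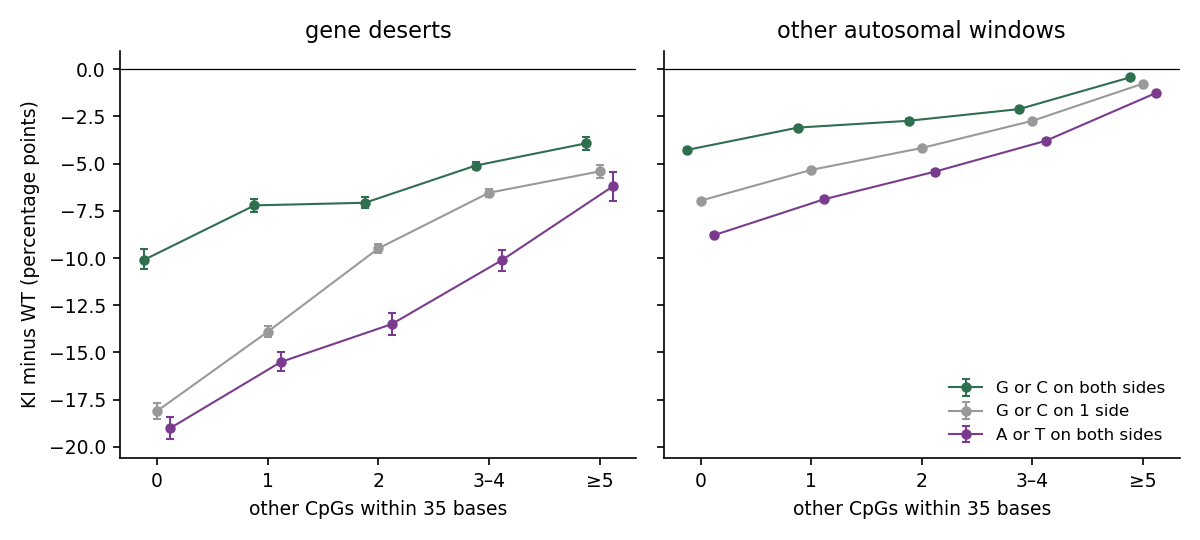
KI minus WT methylation (y axis, percentage points, mean with 95% counting interval) of CpGs outside CCGG sites by the number of other CpGs within 35 bases (x axis) and by the bases on both sides of the CpG (colors), in gene deserts (left) and other autosomal windows (right). The order of contexts is alike in both panels, and every desert point lies below its counterpart, from -19.0 against -8.79 points for lone CpGs between A or T to -3.92 against -0.435 points for crowded CpGs between G or C.

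CpG islands by sequence were present in deserts but were mostly methylated. The 12686 desert CpGs within sequence that meets island criteria of length, GC content and CpG frequency went from 76.7% to 71.0% (-5.65 points). Island CpGs of the other windows averaged 13.3% and 12.6%. The copy number of the sequence around a CpG was also compared. Desert CpGs in sequence with fewer than 5 copies in the mm9 assembly went from 71.9% to 63.2% (-8.74 points), against -2.16 points from 39.9% elsewhere. In sequence with at least 1000 copies the changes were -8.51 points from 83.8% and -6.98 points from 84.8%, so that the difference between deserts and the other windows was -6.58 points in the rarest sequence, where WT levels differed widely, and -1.54 points in the most repeated sequence, where they were alike. Matching on the WT level and on neighbors and flanking bases gave a difference of -4.29 points (-4.39 to -4.18). At like WT levels and like copy number the difference was -2.53 points (-2.63 to -2.42), and with all of these matched it was -2.55 points (-2.66 to -2.45), over 96.2% of the desert CpGs.

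The deserts formed 189 runs of adjoining windows, of which 137 were single windows and 2 were 4 windows long. CpGs in runs of 1, of 2 and of at least 3 windows changed by -8.73, -9.52 and -9.36 points outside CCGG sites. The run on chromosome 1 from 102 to 106 Mb lies between the 5′ ends of Cntnap5b and Cdh20. The body of Cntnap5b reaches into it. This run held 1805 CpGs at 68.4% in WT and 60.9% in KI, and its 4 windows lay within -8.29 and -7.15 points of change. The run on chromosome 18 between Celf4 and Pik3c3 changed by -5.71 points, with windows from -7.11 to -4.43 points. Of the 13 runs of 3 windows, the 3 with the most CpGs changed by -6.86, -6.93 and -6.81 points. The first lies on chromosome 10, between the 5′ ends of Hace1 and Grik2, and the body of Grik2 reaches into it. The second lies on chromosome 1 between Dsel and Cntnap5a, and the third on chromosome 8 between 4930555F03Rik and Aga. Over all 15 runs of at least 3 windows the median change was -7.25 points, with a range from -8.61 to -5.71 points.

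Among deserts with at least 200 CpGs, the largest loss was at chr12:116000001-117000000, which went from 67.8% in WT to 57% in KI (-10.8 points, -11.5 to -10.2; 46 CpGs called lower). It counts as a desert only because the variable segments of the immunoglobulin heavy chain that fill it, such as Ighv1-54, are annotated apart from protein-coding genes. The deserts with the next largest losses lie between Agbl1 and Ntrk3, a neurotrophin receptor, on chromosome 7 (63.8% to 53.2%), between Nr2f1, an orphan nuclear receptor, and Arrdc3 on chromosome 13 (66.7% to 56.6%), between Gm10800 and Rag2, a subunit of the V(D)J recombinase, on chromosome 2 (67% to 56.9%), and between 4931417E11Rik and Gm9008 on chromosome 6 (62.7% to 52.5%). Their GC contents were 36.7% to 39.1%, and outside CCGG sites they changed by -15.1 to -13.6 points.

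The smallest loss was at chr5:132000001-133000000, which lies within the body of Auts2, a regulator of transcription in neural development. It went from 49.8% in WT to 48.7% in KI (-1.11 points, -1.76 to -0.463), with 1 of 557 CpGs called lower. Next came chr15:62000001-63000000 beyond Myc, which includes the long noncoding RNA Pvt1, with 71.3% in WT and 68.9% in KI. The desert between the 5′ ends of Adamts9, an extracellular protease, and Magi1 on chromosome 6 includes part of the Magi1 body. It went from 68.5% to 66%, and it holds the lone CpG on chromosome 6 shown above. The desert between the 5′ ends of Wwox, an oxidoreductase gene at a common fragile site, and Maf, a transcription factor, lies on chromosome 8. It includes part of the Wwox body and went from 69.1% to 66.5% over 1588 CpGs, the most of any desert. The one next to Cited2, a transcriptional coregulator, on chromosome 10 went from 67.6% to 64.5%. The WT level was 67.6% to 71.3% in 4 of these 5 windows and 49.8% in the Auts2 window. It was 62.7% to 67.8% in the 5 windows with the largest losses. The 2 ranges thus overlapped only from 67.6% to 67.8%. Across the 258 deserts, the change outside CCGG sites went with CpGs per kb (Pearson's r 0.437, Spearman's rho 0.414), with the share of lone CpGs (-0.41 and -0.381) and with GC content (0.352 and 0.27). For the WT level (-0.271 and 0.0553) and the reads per CpG in WT (0.0257 and -0.268), 1 of the coefficients was near 0. These windows share the same pair of libraries, and the values are descriptive.

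Of the 258 deserts, 67 are touched by the body of a protein-coding gene and 191 by none. Desert CpGs in such bodies changed by -7.88 points outside CCGG sites and those outside them by -9.22 points. In 12 deserts a single gene body covers at least 90% of the window, and all 12 were lower in KI, with a median of -8.86 points and a range from -14.3 to -1.33 points. Besides Auts2, the 7 with the most CpGs were as follows. The levels cover only the part of each gene body that lies in its desert. Lrp1b, a receptor of the LDL receptor family, went from 84.9% to 76.5% outside CCGG sites. Pcdh15, a protocadherin of hair cells, went from 82.8% to 74.8%, and Dlg2, a synaptic scaffold, from 68.1% to 56.7%. Odz2, a teneurin, had the largest loss of the 7, from 79.1% to 66.7%. Gpc5, a glypican, went from 84.8% to 77.2%, Ptprd, a receptor tyrosine phosphatase, from 39.9% to 35.7%, and Erbb4, a neuregulin receptor, from 85.9% to 78.4%. Of these parts, that of Ptprd had the lowest WT level and that of Auts2 the smallest change (56.7% to 55.4%).

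At a finer scale, 6006 windows of 1 kb with at least 5 CpGs lay in deserts, of which 5638 (93.9%) had a lower mean in KI, against 75.2% in the other autosomal windows. Those above 70% in WT, 2822 in number, had a median change of -6.43 points, against -3.29 points elsewhere. Of the 2822, 12 (0.425%) were below 50% in KI, against 142 of 51403 (0.276%) in the other windows. Below 20% were 0 of 2822 in deserts and 2 of 51403 elsewhere, so the 0 does not set deserts apart. It allows a share of up to 0.106% if windows are taken as independent, which windows from the same 2 libraries are not. Called lower by more than 25 points in both the stratified test and Fisher's exact test on summed reads were 35 windows (0.583%), against 0.306% over all 1 kb windows, and 0 were called higher, where 0.0356% were over all 1 kb windows. Under 20% in WT were 61 desert windows of 1 kb (1.02%), against 17.5% elsewhere.

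Losses were named only among the 25 called windows with at least 80% of their cytosines changed the same way. Most cytosines of a named loss were therefore lower by selection. The sequences of the 3 largest of these losses show the fragments that such values come from. The window under 20% in WT with the most CpGs is shown after them. They are on the plus strand of mm9, with capitals at the CpGs shared by both libraries.
Loss, chr9:17778088-17778235: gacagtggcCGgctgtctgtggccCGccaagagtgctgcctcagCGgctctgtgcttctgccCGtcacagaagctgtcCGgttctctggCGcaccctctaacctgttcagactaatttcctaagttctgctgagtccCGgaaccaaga
Loss, chr4:31704905-31705009: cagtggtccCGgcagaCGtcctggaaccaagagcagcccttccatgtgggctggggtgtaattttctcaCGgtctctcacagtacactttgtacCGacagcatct
Loss, chr8:53109756-53109880: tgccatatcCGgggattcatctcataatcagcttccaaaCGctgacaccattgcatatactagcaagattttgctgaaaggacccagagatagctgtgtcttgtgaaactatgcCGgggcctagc
Low in both, chr14:72932106-72932290: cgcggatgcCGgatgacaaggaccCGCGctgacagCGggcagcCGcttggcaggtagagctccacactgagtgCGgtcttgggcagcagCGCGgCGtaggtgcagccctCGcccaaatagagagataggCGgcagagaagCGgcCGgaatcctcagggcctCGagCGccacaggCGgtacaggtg
The first, between Gm5611 and Chordc1, went from 81.6% to 35.7% over 7 cytosines, but each was read only 6 to 8 times and no single CpG of it was called. The second, between Epha7 and Map3k7, went from 69.9% to 27.7% at 7 to 17 reads, with 7 of 8 cytosines lower. The third, between 4930555F03Rik and Aga, went from 61.4% to 24.6%, with 5 of 6 cytosines lower and the sixth at 0% in both libraries. Its cytosines were read 13 to 362 times in WT and 8 to 292 times in KI. The other losses named, at chr17:90249001-90250000 beyond Fshr and at chr4:76641001-76642000 inside Ptprd, went from 52.5% to 16.5% and from 62.9% to 27.9%. All 5 rest on at most 9 cytosines. The low window on chromosome 14, between Gfra2 and Fndc3a, averaged 1.80% in WT and 1.83% in KI over 72 cytosines. The next 3 of its kind, beyond St3gal1 on chromosome 15, before Nlgn1 on chromosome 3 and inside Ptprd, were below 1% in both libraries. The last lies over 2610005L07Rik, in the least methylated desert, and read 9.32% in WT and 10.6% in KI.

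The tissue was checked at promoters, which lie outside the deserts. Among promoters of hepatocyte genes with enough CpGs, the level in WT was 0% at Trf, 2.78% at Tat, 33.9% at F2 and 43.7% at Apob. It was 65.3% at Cd3e, which marks T cells, and 66% and 76.7% at Pecam1 and Cdh5, which mark endothelium. The promoter of Alb did not have enough CpGs to be measured. DNA of all liver cells was pooled, so a change in cell makeup and a change within cells cannot be told apart. Whole libraries summed to coverages of 192144002 in WT and 173109895 in KI over all listed CpGs and at shared CpGs the median was 37 reads in either library.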

How the data were processed

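RRBS of pooled WT and KI liver DNA was analysed, with 1 library per genotype. The authors aligned reads by Bismark to mm9 (the submitters' processing notes give version 0.12.20), kept uniquely mapped reads, and deposited for each cytosine of a CpG the coverage as a count of reads and the methylation as a percent of them. How duplicate reads were handled is not given in the sources used here. Methylated reads were recovered as coverage times percent and came out whole at 100% of the positions, within 0.005 of a percentage point in the deposited value.

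CpGs with 5 or more reads in each library entered with equal weight, and strands were taken from mm9. A change is the KI level less the WT level, in percentage points. Reads at each CpG were put to a two-sided Fisher's exact test (Benjamini-Hochberg adjustment across the shared CpGs), and windows to a Cochran-Mantel-Haenszel test stratified by CpG, 1 kb windows also by Fisher's exact test on summed reads. Calls needed an adjusted p under 0.05 and, for CpGs and 1 kb windows, more than 25 points. One read can cover several CpGs, so p-values are too small. Copies are occurrences of 16-base words within 51 bases, counted in the mm9 assembly. Islands span at least 500 bases with at least 55% GC and an observed to expected CpG ratio of at least 0.65.

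Named windows are the 5 longest runs (ties by more CpGs) and the 5 largest and smallest losses among deserts with at least 200 CpGs. At 1 kb they are the 5 largest called losses with at least 80% of CpGs changed the same way. The 5 windows of 1 kb under 20% in WT with the most CpGs are also named. The 8 genes are those with the most CpGs among genes covering at least 90% of a desert. Up to 3 called gains were to be named and there were 0. The windows, classes, marker lists and tests were chosen with earlier results of these data known. The procedures were tested on simulated data. Python 3.11.15, numpy 2.4.6, scipy 1.17.1, numba 0.67.0, pandas 2.3.3, pysam 0.24.0, samtools 1.23.1 and matplotlib 3.10.9 were used.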

Additional observations from a re-analysis of the deposited data

Results flagged for a closer look

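Some fragments of deserts were read in 1 library only and enter no comparison. Of 79527 desert CpGs with at least 20 reads in either library, 35 had at least 20 reads in WT and none in KI, in 5 windows, and 79 had at least 20 reads in KI and none in WT, in 8 windows. At least 1% of such CpGs were missing from the other library in 8 deserts, against 59 of the 2157 other windows. The highest shares were 7.74% at chr17:58000001-59000000, 7.29% at chr3:70000001-71000000 and 6.5% at chr3:71000001-72000000, and the shared CpGs of these windows changed by -8.9, -6.37 and -6.48 points. The cause of the missing fragments was not tested. Without these 8 deserts and the 59 others the desert change was -6.93 points.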

How the results depend on the processing

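The mean change of desert CpGs stayed between -9.05 and -6.43 points, the difference from the other windows between -6.02 and -2.66 points, and the difference at like WT levels between -3.9 and -2.55 points, each with an interval below 0 under all 15, 15 and 5 alternatives tried for them. The difference was smallest, -2.66 points, with every read given the same weight. The number of desert CpGs called lower was within 1.5 times of 3637 under 12 of 15 alternatives. It was 2418 with strands summed, 8969 with no minimum difference and 795 when windows with the 5′ end of any gene except pseudogenes were left out, which keeps 57 windows. CpGs called higher were 4 in those 57 windows, 22 in the 191 windows touched by no protein-coding gene body, 59 with the grid shifted by 500 kb and 86 with no minimum difference. Of the 57 windows, 57 were called lower. With counts averaged over the CpGs of a window, 0 of 258 deserts were called lower by Fisher's exact test. The 35 windows of 1 kb called lower became 8 at a minimum of 20 reads, 93 without CCGG sites and 17 with strands summed, so the number of short stretches called depends on these choices. Leaving out the deepest window or the window of immunoglobulin segments, and matching neighbors, flanking bases and copies, were chosen after seeing the data, and moved no direction. Whether the 8 are among the 35 was not counted.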
